A study of Sus scrofa with 8 samples.

Results

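Phase II conjugating enzymes join a small polar group to a drug, a steroid, a bile acid or a reactive lipid product, which makes it more soluble and easier to export into bile or urine. Glutathione S-transferases (GST, with the membrane-bound MGST) add glutathione, UDP-glucuronosyltransferases (UGT) add glucuronic acid from UDP-glucuronate, and sulfotransferases (SULT) add sulfate from the donor PAPS. In the liver the hepatocyte is the main site of all 3 reactions. The genes described here are those whose assigned symbol began with GSTA, GSTK, GSTM, GSTO, GSTP, GSTT, GSTZ, MGST, UGT1, UGT2 or SULT. There were 16 of them among the 18103 genes of the expression table: 6 GST genes of the alpha, kappa, mu, omega and zeta classes, 3 MGST, 2 UGT and 5 SULT genes. No gene carried a GSTP or GSTT symbol, and 37 further genes were recognised as enzymes of these families by their description only.

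Hepatic RNA came from 8 male Landrace x Large White pigs. The initial state was sampled by liver biopsy at 4 months of age, and steatosis was sampled from the same animals after euthanasia at 6 months, following 2 months on a diet rich in saturated fat, fructose, cholesterol and cholate and poor in methionine and choline. In each state 4 pools were sequenced, each of 2 pigs in equal amounts, so the 8 libraries were 4 against 4. Diet, age and sampling route cannot be told apart in this design, and a pool hides the difference between its 2 animals. Values are FPKM, fragments scaled to transcript length and to the size of the library, in which levels of different genes can be compared. These values do not carry the depth of a library. In bulk liver, fewer cells of a type and less RNA per cell cannot be told apart.

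The liver origin was clear from 10 hepatocyte markers, whose summed FPKM ranged from 69070 to 103629 in the initial state and from 61318 to 71069 in steatosis. Most of that was ALB, with means of 50413 and 37499 FPKM. Of the 10 markers, 1 was higher and 2 were lower at adjusted p under 0.05, against 26.7% and 2.28% of all tested genes. Pool 1 of the initial state stood apart: its 9 skeletal muscle markers summed to 2915 FPKM and its 9 stomach mucosa markers to 1554 FPKM, against at most 22.1 and 29.4 FPKM in the other 7 libraries. The 12 macrophage markers summed to 761 to 1022 FPKM in the initial state and 1286 to 1503 FPKM in steatosis. Of these, 9 of 12 were higher and none lower at adjusted p under 0.05, beside the same shares of all genes. The 9 cholangiocyte markers measured summed to 47.7 to 63.8 and 157 to 283 FPKM, with 3 of 8 tested higher, against 26.7% of all genes. Most of that was SPP1, at 4.16 to 9.64 and 74.4 to 227 FPKM, and without it the sums overlapped, at 43.6 to 54.2 and 48.0 to 85.1 FPKM. The stellate cell markers summed to 67.8 to 270 and 124 to 326 FPKM, the endothelial markers to 166 to 202 and 213 to 238 FPKM and the red blood cell markers to 264 to 1304 and 138 to 431 FPKM. Of the stellate cell markers 3 of 10 were higher and 1 was lower, and of the endothelial markers 2 of 9 were higher and none lower. None of 4 tested red blood cell markers changed. No marker found in the table was at 0 in all 8 libraries. The part of these other cells in the results below was not tested.

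Conjugation genes with a symbol were mostly abundant in these livers. How many of them passed a test for a change is given beside the share over all tested genes, and a difference from that share was not tested. A gene was called differentially expressed when limma gave a Benjamini-Hochberg adjusted p under 0.01 together with more than 1 unit of log2 fold change in either direction, and changed when the adjusted p was under 0.05 whatever its size. Of the 16 genes, 14 passed the filter on low values and were tested. None was differentially expressed, whereas 6.35% of the 13175 genes tested were. At adjusted p under 0.05, GSTA1 and MGST3 were higher and none was lower, which is 14.3% of the 14, against 26.7% of all tested genes higher and 2.28% lower. At an unadjusted p under 0.05 the count was 6 of 14, against 41.9% of all genes. The groups did not overlap for GSTA1 and MGST3, both higher in steatosis, against 29.6% of all genes not overlapping in that direction and 2.53% in the other. The median log2 fold change of the 14 was 0.04, with 8 positive and 6 negative values between -0.62 and 0.66, beside a median of 0.25 over all tested genes. In size, whatever the sign, the median was 0.30 against 0.31 over all genes. These were abundant genes, with a median of 133 FPKM against 5.13 FPKM over all genes. Among genes with a mean of at least 10 FPKM, 13 were conjugation genes with a symbol and 2 of those changed, while 31.4% of all 4246 such genes did so with a median log2 fold change of 0.17.

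**Figure D1:**
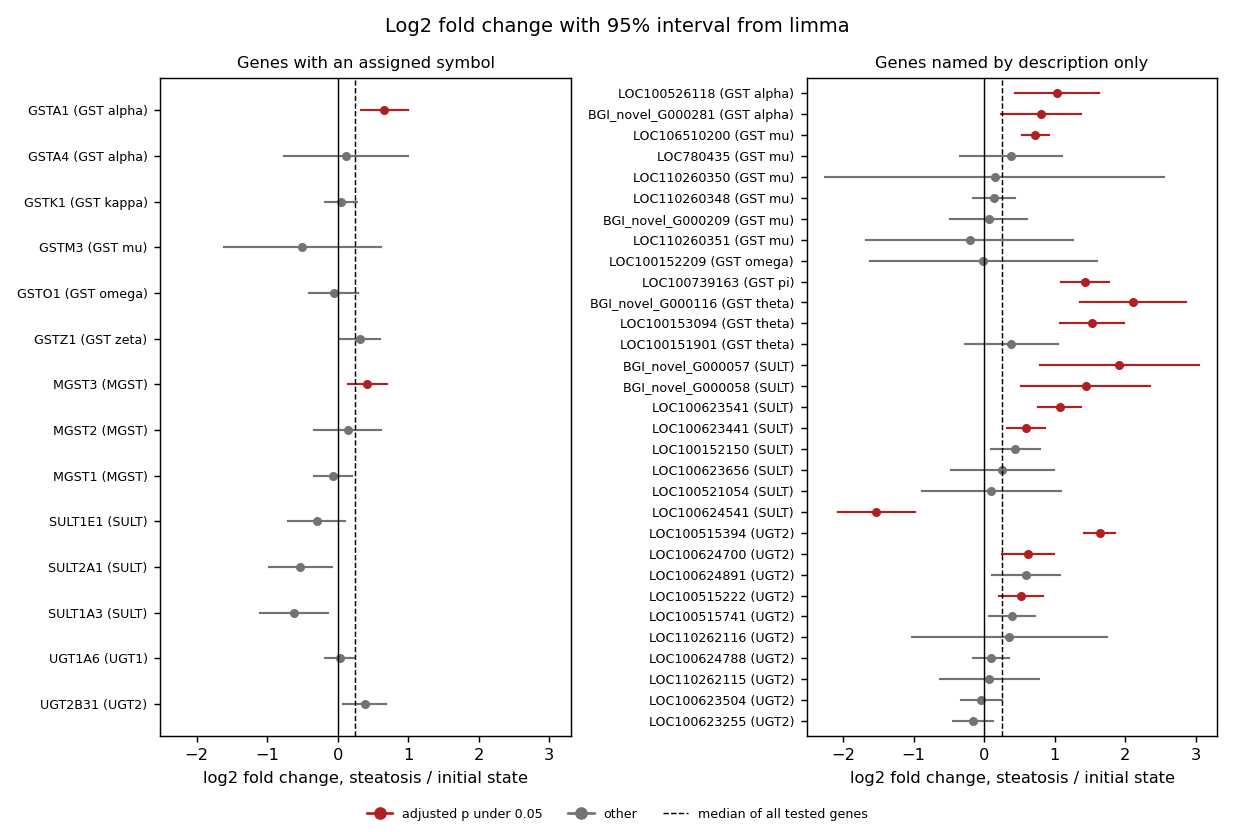
Log2 fold change of steatosis over the initial state on the x axis, as points with 95% intervals from limma, for the 14 tested genes with an assigned symbol (left) and the 31 tested genes named by description only (right). The dashed line is the median of all tested genes, 0.25. Red marks an adjusted p under 0.05, which 2 genes reached on the left and 14 on the right.

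The common shift of all genes bears on every sign given here. With libraries rescaled by the median of their gene ratios to the average library, the median over all genes moved from 0.25 to -0.02, and with upper-quartile scaling it moved to 0.04. Under both, GSTA1 and MGST3 were no longer changed and SULT2A1 and SULT1A3 were called lower, so no gene of the 14 was higher and 2 were lower. Under the same scalings 10.1% and 7.32% of all tested genes were lower, and 11.2% and 13.1% were higher. For genes that passed a test in at least 1 fit, the log2 fold change relative to the common shift is given beside the main one.

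Alpha class enzymes conjugate lipid peroxidation products and bind bilirubin and bile acids. GSTA1 (chromosome 7, 46538743 to 46550781, Sscrofa11.1) was the most abundant gene of the group and ranked 44 by mean FPKM among all genes. In the initial state its pools 1 to 4 held 1129, 1389, 1322 and 1357 FPKM, and in steatosis 2702, 1911, 1991 and 1699 FPKM. Every steatosis pool was above every initial one, and pool 1 had both the lowest initial and the highest steatosis value. The mean went from 1299 ± 117 to 2076 ± 435 FPKM (SD, n = 4). The log2 fold change in limma was 0.66 (SE 0.15), at an adjusted p of 0.0098, which is 0.41 above the median of all genes, and the exact two-sided permutation test of the mean FPKM gave p = 0.0286, the smallest possible with 4 against 4. GSTA1 stayed called at adjusted p under 0.05 in all 10 fits that left libraries out, with 0.46 as the lowest log2 fold change, without pool 1 of both states. After median ratio scaling the log2 fold change was 0.38 (limma adjusted p = 0.158), and after upper-quartile scaling 0.44 (limma adjusted p = 0.0757).

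GSTA4, the alpha class enzyme known for its preference for 4-hydroxynonenal, lies in the same cluster (46635903 to 46656491). It had 14.9, 26.2, 32.1 and 9.08 FPKM before the diet and 26.4, 25.7, 20.2 and 11.5 FPKM after it. The groups overlapped fully, and the spread within the initial state (9.08 to 32.1 FPKM around a mean of 20.6 FPKM) was far larger than the difference to the steatosis mean of 20.9 FPKM. The log2 fold change was 0.11 with a 95% interval from -0.77 to 0.99, and its sign turned under both scalings.

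GSTO1, an omega class enzyme with thioltransferase activity, had 301, 286, 333 and 475 FPKM before the diet and 327, 300, 320 and 370 FPKM after it. Only pool 4 of the initial state lay above the rest, and the log2 fold change of -0.06 (95% interval -0.41 to 0.29) was 0.10 without that pool. GSTK1, the kappa class enzyme of mitochondria and peroxisomes, held 135, 129, 151 and 161 FPKM and then 163, 150, 137 and 146 FPKM. Its log2 fold change of 0.05 had an interval from -0.17 to 0.27 and turned negative under both scalings.

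GSTZ1, which isomerises maleylacetoacetate in tyrosine breakdown, had 98.8, 75.4, 88.3 and 113 FPKM before the diet and 115, 112, 129 and 107 FPKM after it. It was higher in 3 of the 4 pools and lower in pool 4. Its log2 fold change was 0.31 (95% interval 0.03 to 0.60), with a limma adjusted p of 0.0921, which is 0.06 relative to the median of all genes, and it was 0.03 after median ratio and 0.091 after upper-quartile scaling. GSTM3, the sole mu class gene with a symbol and the least abundant GST here, had 4.17, 2.96, 1.09 and 5.13 FPKM and then 3.47, 3.11, 1.04 and 1.46 FPKM. Its log2 fold change of -0.50 came with an interval from -1.61 to 0.61. Pool 3 was lowest in both states.

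Microsomal glutathione transferases are integral membrane proteins, and MGST1 is the abundant form of liver endoplasmic reticulum and outer mitochondrial membrane. MGST1 had 657, 844, 850 and 862 FPKM before the diet and 877, 763, 712 and 712 FPKM after it. Pool 1 of the initial state was low and pool 1 of steatosis was the highest of all 8 libraries, while pools 2 to 4 had lower values in steatosis. The log2 fold change was -0.06 (95% interval -0.33 to 0.20).

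MGST3, which also reduces lipid hydroperoxides, moved in all 4 pools. It held 87.0, 110, 126 and 91.2 FPKM before the diet and 140, 128, 148 and 133 FPKM after it, so the lowest steatosis value, in pool 2, was just above the highest initial value, in pool 3. The mean went from 103 ± 17.9 to 137 ± 8.92 FPKM (SD, n = 4), with a log2 fold change of 0.42 (SE 0.12, limma adjusted p = 0.0300), 0.17 above the median of all genes, and an exact permutation p of 0.0286. The call was lost in 6 of the 10 fits that left libraries out, those without pool 1 or 4 of the initial state, pool 1, 3 or 4 of steatosis, or pool 1 of both (log2 fold changes of 0.34, 0.37, 0.41, 0.38, 0.44 and 0.33), and also after median ratio scaling (0.14, adjusted p = 0.426) and upper-quartile scaling (0.20, adjusted p = 0.234). MGST2, which can join glutathione to leukotriene A4, had 20.8, 34.4, 32.5 and 43.3 FPKM and then 41.0, 34.1, 27.2 and 39.2 FPKM. The groups overlapped, the log2 fold change was 0.14 (95% interval -0.34 to 0.62), and it was -0.14 without pool 1 of both states.

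**Figure D2:**
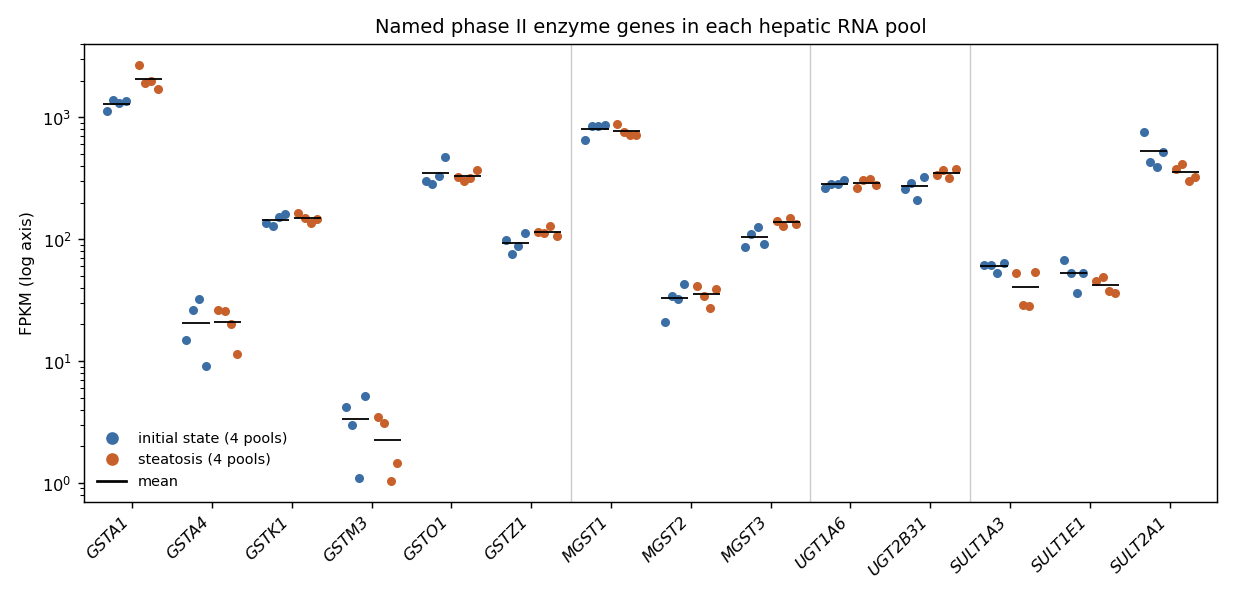
FPKM of the 14 tested genes with an assigned symbol, on a log axis, with 1 point for each of the 4 initial (blue) and 4 steatosis (orange) pools in pool order and a black line at the group mean. GSTA1 and MGST3 have no overlap between groups, and the other 12 do overlap.

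Glucuronidation genes with a symbol were both abundant. UGT1A6 names the UGT1 locus (chromosome 15, 133968693 to 134049029), where first exons share a common 3' part, and the table merged 7 transcripts there, so single UGT1A isoforms could not be separated. It had 261, 284, 285 and 308 FPKM before the diet and 266, 308, 313 and 276 FPKM after it. With a coefficient of variation of 6.65% and 8.04% within the groups it was among the steadiest of these genes, and its log2 fold change was 0.03 with an interval from -0.18 to 0.24. After scaling it was -0.25 by median ratio and -0.19 by upper quartile.

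UGT2B31, of the subfamily that glucuronidates steroids and bile acids, had 257, 292, 209 and 327 FPKM before the diet and 338, 368, 318 and 377 FPKM after it. It was higher in steatosis in every pool, and the groups overlapped only through pool 4 of the initial state and pool 3 of steatosis. limma gave it a log2 fold change of 0.38 (SE 0.14) and an adjusted p of 0.0604. Relative to the median of all genes it was 0.13. Blocking on the pools brought the limma adjusted p to 0.0250, whereas after scaling the log2 fold change was 0.10 by median ratio and 0.16 by upper quartile (limma adjusted p = 0.71 and 0.487).

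The 3 sulfotransferase genes that could be tested all had negative log2 fold changes, though none reached an adjusted p under 0.05 in the limma fit by group alone. SULT2A1, which sulfates bile acids and dehydroepiandrosterone, had 761, 434, 391 and 516 FPKM before the diet and 381, 415, 301 and 325 FPKM after it. It was lower in steatosis in all 4 pools, and most so in pool 1. The mean was 526 ± 166 and 355 ± 52.0 FPKM (SD, n = 4). Its log2 fold change was -0.53 (SE 0.20, limma adjusted p = 0.0713), or -0.78 relative to the median of all genes, and the exact permutation p was 0.0571. Without pool 1 of the initial state the log2 fold change was -0.33. With the pools as blocks the limma adjusted p was 0.0376.

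SULT1A3 (RefSeq also lists SULT1A1 for this gene), a phenol sulfotransferase, had 61.3, 61.2, 53.0 and 64.1 FPKM before the diet and 52.4, 28.6, 28.5 and 53.4 FPKM after it. Pools 2 and 3 of steatosis were far below the other 6 libraries, and pools 1 and 4 of steatosis lay beside pool 3 of the initial state. Its log2 fold change was -0.62 (SE 0.22, limma adjusted p = 0.0571) and relative to all genes -0.87. With the pools as blocks the limma adjusted p was 0.0279. After median ratio scaling SULT2A1 had a log2 fold change of -0.81 (limma adjusted p = 0.0317) and SULT1A3 one of -0.90 (limma adjusted p = 0.0230), and upper-quartile scaling gave -0.75 and -0.84 (limma adjusted p = 0.0382 and 0.0257).

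SULT1E1, the oestrogen sulfotransferase, had 68.0, 52.3, 36.3 and 53.1 FPKM before the diet and 45.2, 49.2, 37.4 and 36.5 FPKM after it. The groups overlapped and the log2 fold change was -0.29 (95% interval -0.70 to 0.11), or -0.55 relative to the median of all genes. SULT2B1, the cholesterol sulfotransferase of skin, had 0.04 to 0.09 FPKM and SULT4A1, a brain form, 0 to 0.03 FPKM. Both stayed under the filter of 0.3 FPKM in 4 libraries and were not tested.

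A single gene dominated the summed FPKM of the GST, MGST and SULT classes. The 6 GST genes summed to 1683, 1908, 1927 and 2121 FPKM before the diet and 3337, 2502, 2597 and 2333 FPKM after it, without overlap, and the share of GSTA1 in that sum was 68.1 ± 3.65% and 76.7 ± 3.34% (SD, n = 4). The MGST sum was 939 ± 117 and 939 ± 81.7 FPKM, with MGST1 at 85.5% and 81.5%. The UGT sum was 556 ± 62.7 and 641 ± 31.0 FPKM, shared about equally by its 2 genes. The SULT sum was 638 ± 180 and 438 ± 58.5 FPKM, with SULT2A1 at 81.9% and 81.0%, and the highest initial value, 891 FPKM, was that of pool 1. These sums are descriptions and were not tested.

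**Figure D3:**
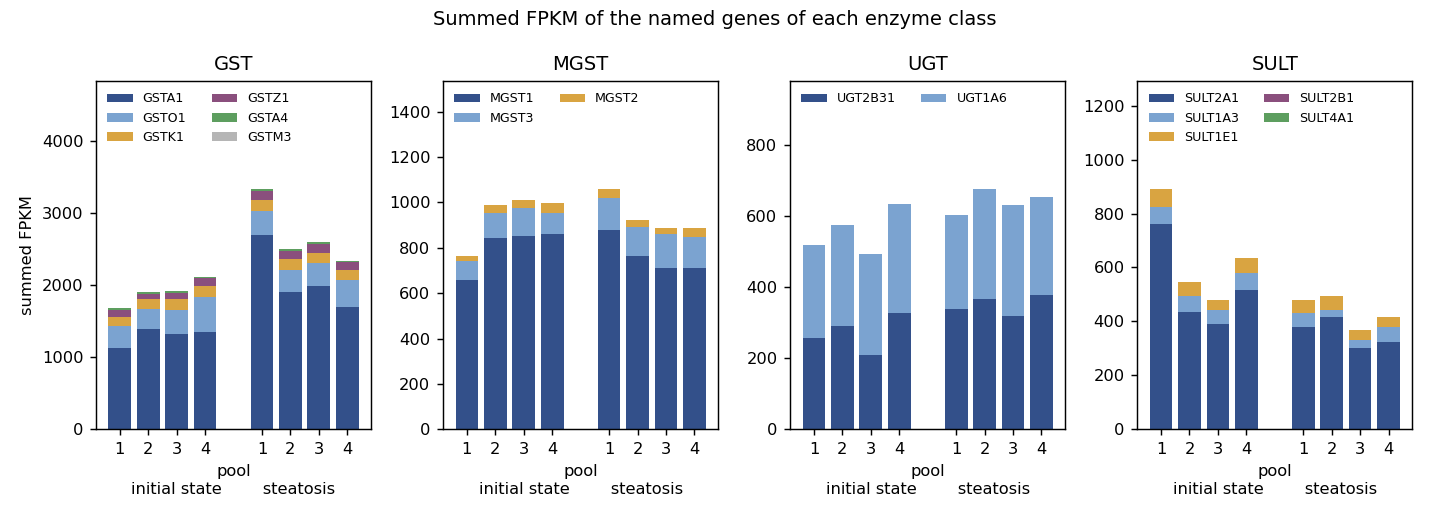
Summed FPKM of the named genes of each enzyme class on the y axis, as stacked bars from 0, for pools 1 to 4 of the initial state and of steatosis on the x axis. GSTA1 makes up most of the GST bars, which are higher in all 4 steatosis pools, and SULT2A1 makes up most of the SULT bars.

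Many enzymes of these families had no symbol in the table. Of the 37 genes recognised by description, 31 were tested. Their log2 fold changes spanned -1.53 to 2.11, around a median of 0.40. Differential expression was called for 5 higher and 1 lower, against 6.01% and 0.334% of all tested genes. At adjusted p under 0.05 there were 13 higher and 1 lower, which is 45.2% of the 31, against 29% of all genes in either direction. The median ratio and upper-quartile scalings left 6 and 8 higher, against 11.2% and 13.1% of all genes. With the pools as blocks 8 were differentially expressed and higher, against 5.96% of all genes, the additional ones being LOC100526118 (GSTA1-like) and the amine sulfotransferase-like new transcripts BGI_novel_G000057 and BGI_novel_G000058. LOC100515741, LOC100152150 and LOC100624891 then also became higher at adjusted p under 0.05 (limma adjusted p = 0.0228, 0.0224 and 0.0140).

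The pi and theta classes, missing among the symbols, were represented here. LOC100739163, described as a GST P-like gene (chromosome 2, 4978761 to 4982233), had 58.8, 38.8, 38.4 and 38.4 FPKM before the diet and 106, 127, 104 and 128 FPKM after it, a log2 fold change of 1.43 (SE 0.15, limma adjusted p = 0.0002). LOC100153094, GST theta-1 (chromosome 14, 49801444 to 49807668), had 8.25, 9.52, 15.2 and 14.4 FPKM and then 38.7, 27.7, 31.0 and 36.3 FPKM, a log2 fold change of 1.52 (SE 0.20, limma adjusted p = 0.0007). The new transcript BGI_novel_G000116, GST theta-1-like, had means of 1.39 ± 0.637 and 5.92 ± 1.57 FPKM (SD, n = 4) and thus 2.11 as log2 fold change. All 3 kept the call under all 18 alternatives.

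Within the UGT2 and SULT genes without a symbol both directions occurred. LOC100515394, described as UGT 2C1 (chromosome 8, 66407691 to 66430844), had 106, 90.9, 110 and 94.1 FPKM before the diet and 321, 315, 279 and 335 FPKM after it, a log2 fold change of 1.64 (SE 0.10). Its neighbour UGT2B31 in the same cluster, as given above, had 0.38. Other genes of the cluster described as UGT 2C1 or 2C1-like had smaller values than LOC100515394. They were LOC100624700 (0.62), LOC100624891 (0.59), LOC100515222 (0.52) and LOC110262116 (0.36). Of these, LOC100624700 and LOC100515222 were higher at adjusted p under 0.05, and neither was after median ratio or upper-quartile scaling. LOC100624541, SULT 1B1 (chromosome 8, 66727047 to 66748761), had 10.9, 16.3, 16.0 and 15.0 FPKM and then 5.68, 7.79, 3.51 and 3.76 FPKM, a log2 fold change of -1.53 (SE 0.25, limma adjusted p = 0.0019). Without pool 3 of both states it was -1.32 with a limma adjusted p of 0.0149, above the limit of 0.01 for differential expression. LOC100623541, SULT 1C2 by its RefSeq name, had means of 2.59 ± 0.199 and 5.56 ± 0.801 FPKM (SD, n = 4), or 1.07 in log2 fold change, which was below 1 after median ratio (0.79) and upper-quartile (0.85) scaling. It was also below 1 with 1 in place of 0.1 added to FPKM, and the call held under 15 of the 18 alternatives.

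**Figure D4:**
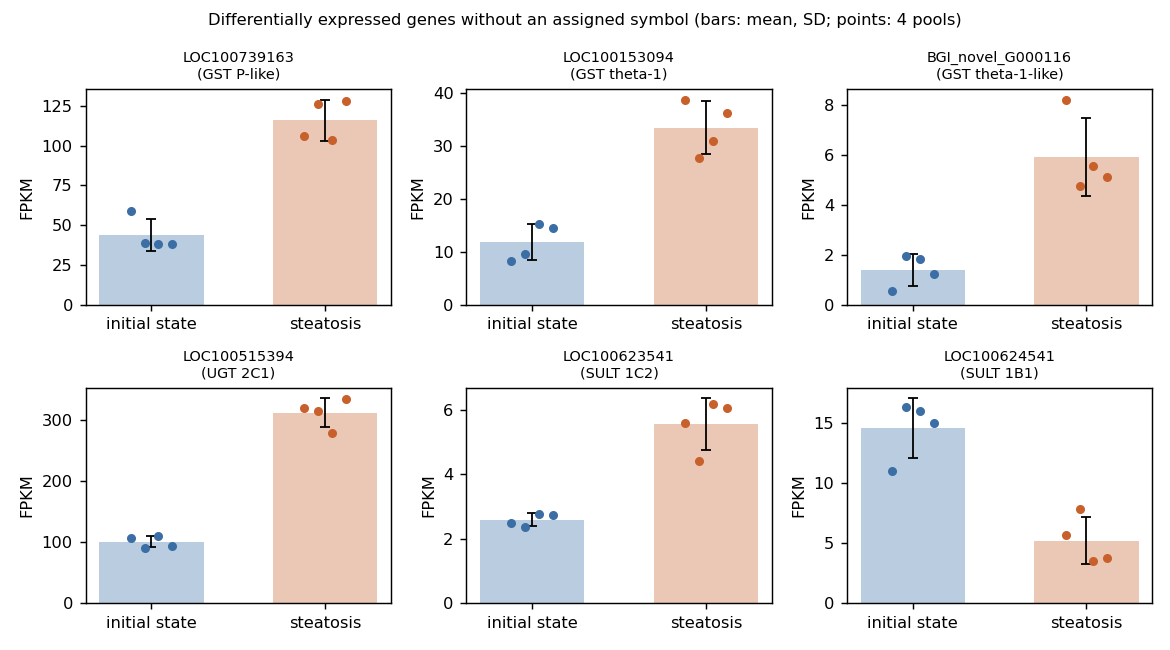
FPKM on the y axis of the 6 differentially expressed genes of these families without an assigned symbol, with bars at the mean, error bars of 1 SD and points for the 4 pools of the initial state (blue) and steatosis (orange). In each of the 6 panels the groups do not overlap, as in 32.1% of all tested genes, and SULT 1B1 alone is lower in steatosis. The 6 genes were picked by the limma call on these same values.

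Close relatives share sequence, so the split of fragments between them is uncertain. GSTA1 lies on chromosome 7 beside LOC100526118, described as GSTA1-like, which went from 17.4 ± 3.88 to 37.0 ± 12.5 FPKM (SD, n = 4; log2 fold change 1.03, limma adjusted p = 0.0179), and the new transcript BGI_novel_G000281, described as GST A2, went from 129 ± 8.59 to 240 ± 87.4 FPKM (log2 fold change 0.81, limma adjusted p = 0.0386). Pool 4 of the latter had 126 FPKM before the diet and 122 FPKM after it, and its call was lost after median ratio scaling, upper-quartile scaling and without pool 3 of both states (limma adjusted p = 0.199, 0.149 and 0.147). Both scalings also ended the call of LOC100526118 (limma adjusted p = 0.0876 and 0.0608). UGT2B31 has 3 relatives described as UGT 2B31 or 2B31-like, of which LOC100515741 was more abundant than UGT2B31 itself, with 352 ± 68.4 and 459 ± 43.5 FPKM. The other relatives had negative log2 fold changes and were not called. LOC100623255 had 197 ± 26.9 and 175 ± 21.5 FPKM (-0.16), and LOC100623504 had 129 ± 22.0 and 124 ± 10.4 FPKM (-0.04). Summed with the genes without a symbol, 22 GST genes had 2655 ± 219 and 3869 ± 621 FPKM and 13 UGT genes had 1468 ± 133 and 1883 ± 96.0 FPKM, without overlap between groups, and 15 SULT genes had 916 ± 193 and 820 ± 82.6 FPKM, with overlap.

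The donors of the 3 reactions come from other pathways, and their genes were counted from lists. The counts at adjusted p under 0.05 stand against 26.7% of all tested genes higher and 2.28% lower. In glutathione supply 3 of 9 tested genes were higher and 1 was lower. The lower one, CTH, which makes the cysteine for glutathione from cystathionine, was differentially expressed, with 90.8 ± 46.8 and 28.5 ± 2.2 FPKM (SD, n = 4), its log2 fold change being -1.53 with a limma adjusted p of 0.0042. Pools 1 to 4 of the initial state held 155, 59.2, 52.5 and 97.0 FPKM of CTH, so pool 1 was the highest. The higher ones, named after their values were seen, were both subunits of the rate-limiting glutamate-cysteine ligase, GCLC (0.78) and GCLM (0.70), and GGCT (0.80), in log2 fold change. In mercapturate processing, which trims glutathione conjugates, 3 of 8 were higher and none lower. They were the ectoenzymes ANPEP (log2 fold change 1.56) and GGT1 (1.31), both differentially expressed, and the dipeptidase CNDP2 (0.68).

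UDP-glucuronate supply had 2 of 6 tested genes higher and none lower. These were GUSB, the lysosomal enzyme that splits glucuronides (log2 fold change 0.82, limma adjusted p = 0.0004), and UGDH, which oxidises UDP-glucose to UDP-glucuronate and went from 17.6 ± 4.83 to 34.5 ± 5.01 FPKM (SD, n = 4; log2 fold change 1.0, just under the limit, limma adjusted p = 0.0044). Under both scalings 2 further genes of this list, named after their values were seen, were lower, namely PGM1 (-0.46 by median ratio and -0.40 by upper quartile) and the UDP-sugar transporter SLC35D1 (-0.67 and -0.61). PAPS supply and desulfation had 5 of 11 higher and none lower, namely the steroid sulfatase STS (1.31, differentially expressed), the arylsulfatases ARSA and ARSB and the sulfate transporters SLC26A1 and SLC26A2. Of those 5, 3 encode enzymes that remove sulfate. STS was low, at 0.375 ± 0.087 and 1.09 ± 0.299 FPKM (SD, n = 4). With 1 in place of 0.1 added to FPKM, its log2 fold change was 0.60, under the limit for differential expression.

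Enzymes that conjugate by other means gave 4 of 9 higher and 1 lower. INMT, a methyltransferase of indoleamines, went from 96.8 ± 22.4 to 340 ± 64.0 FPKM (SD, n = 4; log2 fold change 1.82), and HNMT, which methylates histamine, had 1.25, while NNMT, which methylates nicotinamide, had -1.33. GSTCD (0.61) was also higher. Efflux transporters of conjugates had 5 of 10 higher and none lower: the differentially expressed ABCC1 (1.10), ABCC4 (1.07) and ABCC5 (1.0), with the bile salt pump ABCB11 (0.96) and ABCG2 (0.62).

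Among xenobiotic and bile acid sensors 4 of 11 were higher and none lower or differentially expressed, the lowest adjusted p being that of the aryl hydrocarbon receptor AHR (log2 fold change 0.73, limma adjusted p = 0.0008), followed by ARNT, NFE2L2 and RXRA. Known NRF2 targets outside these families gave 8 of 11 higher and none lower, with SRXN1 (1.47) differentially expressed, and GCLC and GCLM stand in this list too. After median ratio scaling, with 11.2% of all genes higher, the genes called higher were 1 of 9 in glutathione supply, 3 of 8 in mercapturate processing, 2 of 6 in UDP-glucuronate supply, 3 of 11 in PAPS supply and desulfation, 2 of 9 among other conjugating enzymes, 5 of 10 efflux transporters, 1 of 11 sensors and 5 of 11 NRF2 targets. No gene named in these lists turned its direction under either scaling. Differential expression was lost under both scalings for GGT1, STS, ABCC1, ABCC4, ABCC5 and SRXN1, and under median ratio scaling for ANPEP and HNMT. Without pool 1 of both states it was lost for STS, NNMT, ABCC1 and ABCC4. With the pools as blocks, 1 gene was lower in mercapturate processing and 1 in UDP-glucuronate supply. Higher were then 4 of 9 genes in glutathione supply, 5 of 11 sensors, 6 of 10 efflux transporters and 9 of 11 NRF2 targets. Over all tested genes 25.7% were higher and 2.6% lower with the block.

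In the same gene clusters, 3 genes without a symbol, picked out after their values were seen, were higher in both pool 3 libraries than in all others. LOC110262116, described as UGT 2C1, had 17.1 FPKM in pool 3 of the initial state and 16.1 FPKM in pool 3 of steatosis, against 2.54 to 4.38 FPKM in the other 6 libraries. LOC110260350, GST mu 2, had 12.2 and 9.31 FPKM in pool 3 and at most 1.51 FPKM elsewhere. LOC100516628, UGT 2B18-like, had 23.4 and 3.22 FPKM in pool 3 and at most 0.27 FPKM elsewhere. Its value in pool 3 was thus also lower in steatosis than in the initial state. Only 4 of 12321 genes that reached 1 FPKM had both pool 3 libraries more than 2 times above all others, and the fourth was the uncharacterised LOC106509653. Both states were sampled from the same animals, but that pools of the same number held the same pigs is inferred from the numbers.

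**Figure D5:**
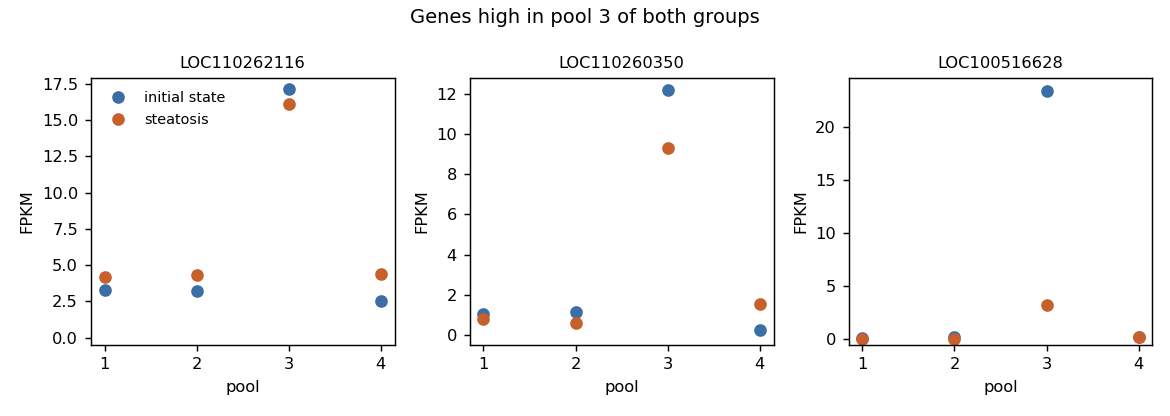
FPKM on the y axis by pool number on the x axis for 3 UGT2 and GST mu genes without an assigned symbol, with the initial state in blue and steatosis in orange. Pool 3 is the highest in both states in each panel, at 17.1 and 16.1, 12.2 and 9.31, and 23.4 and 3.22 FPKM.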

How the data were processed

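Total hepatic RNA was sequenced as paired 100 bp reads. The authors filtered the reads, aligned them with HISAT2 2.0.4 to the Sus scrofa 11.1 genome, added new transcripts, realigned with Bowtie2 2.2.5 and quantified genes with RSEM 1.2.12 (versions from the submitters' processing notes). The deposited table holds FPKM per gene, a unit that does not carry read counts, so no count test or counting interval was used. The deposited pairwise files hold the authors' own fold changes and tests between single pools and were not used.

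Values were transformed to log2(FPKM + 0.1), so fold changes of low genes are understated. The 13175 genes that reached 0.3 FPKM in 4 or more of 8 libraries were fitted with limma 3.58.1 in R 4.3.3 (mean-variance trend, group only), with Benjamini-Hochberg adjustment over all of them. The fit was tested on simulated data. The exact two-sided permutation test of mean FPKM used scipy 1.17.1. Each p measures the spread between pools. Both states came from the same pigs by the study's description. That pools of the same number held the same pigs was inferred from the labels and is not stated. Deviations of equally numbered pools from the group means correlated at 0.16, 0.35, 0.32 and 0.25 for pools 1 to 4. Blocked values are therefore printed where they alter a call in these families, and blocked counts where they alter those of a pathway list.

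Members and gene lists were chosen with earlier results of these data known. Named with values were genes called by either rule, those with a mean of at least 10 FPKM, the leading gene of each family, and in each pathway list up to 3 differentially expressed genes or else that of lowest adjusted p. Genes without a symbol were counted and those differentially expressed named. Of the 18 alternatives, 2 (leaving out pool 1 or pool 3 of both states) were added after seeing the data. Gene positions are those of RefSeq on Sscrofa11.1, which matched 17778 genes. Sequence features were not analysed here, and single values of some listed genes are not reported here.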

Additional observations from a re-analysis of the deposited data

Results flagged for a closer look

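In 5 of 52 groups of 4 values examined, 1 library lay far from the other 3. The limit used is passed by chance in about 1 in 20 groups of independent values without ties. The count of 5 cannot be set against that rate, since the MGST sum repeats MGST1 and the values under the filter are tied. For MGST1 the lowest initial value was that of pool 1, 656.61 FPKM, with the next at 844.03 FPKM. For the sum of the 3 MGST genes it was again pool 1 of the initial state, at 764.41 FPKM against 988.35 FPKM or more in the others. For LOC100739163, the GST P-like gene, pool 1 of the initial state was the highest of its group, at 58.82 FPKM, followed by 38.83 FPKM. Among genes under the filter, SULT2B1 had 0.04 FPKM in pool 4 of the initial state with 0.05 FPKM next, and SULT4A1 had 0.02 FPKM in pool 1 of steatosis with 0 in the other 3 pools. Pool 1 of the initial state is the library with the high muscle and stomach marker sums, and the part of that tissue in these values was not tested.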

How the results depend on the processing

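Of the results for single genes under 18 alternatives, 317 kept their direction and side of adjusted p 0.05, 10 lost the call, 13 gained it and 20 turned direction. No gene with a symbol was differentially expressed under any alternative. Genes with a symbol that were higher at adjusted p under 0.05 numbered 2, and 0 under median ratio and upper-quartile scaling and 1 to 3 when libraries were left out. It was 1 without pool 1 of the initial state, pool 1, 3 or 4 of steatosis, or pool 1 of both. Those that were lower numbered 0, and 2 under each of these scalings, 2 with the pool number as replicate block, and 0 to 2 when libraries were left out (2 without pool 3 of the initial state, 1 without pool 1 or 4 of steatosis). With that block, UGT2B31 joined the higher genes, and SULT2A1 and SULT1A3 the lower ones. Genes without a symbol that were differentially expressed and higher numbered 8 with the block and 5 to 6 when libraries were left out, and those lower 0 without pool 3 of both states (0 to 1 over all fits that left libraries out). Those higher at adjusted p under 0.05 numbered 6 and 8 under median ratio and upper-quartile scaling and 7 to 13 when libraries were left out, 7 being without pool 1 of both states. The log2 ratio of the summed FPKM was, in the same order of scalings, 0.20 and 0.27 for GST, -0.29 and -0.22 for MGST, -0.090 and -0.020 for UGT and -0.84 and -0.77 for SULT.

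The direction turned for 5 genes, none of which passed the test. Under median ratio and upper-quartile scaling the log2 fold change was -0.25 and -0.19 for UGT1A6, -0.23 and -0.17 for GSTK1, -0.14 and -0.079 for MGST2 and -0.17 and -0.11 for GSTA4. When libraries were left out it ranged from -0.14 to 0.10 for GSTO1, -0.0096 to 0.073 for UGT1A6, -0.025 to 0.11 for GSTK1, -0.14 to 0.29 for MGST2 and -0.22 to 0.38 for GSTA4. Scaling to a common sum, the other pseudocounts (1 and 0.01) and the other filters on low values kept all counts of genes with a symbol. The cause of these differences was not tested. The 4 pools a state limit how small a difference can be shown, and FPKM give no counting error.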
